A study of Mus musculus with 12 samples.

Results

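The cholesterol and fatty acid synthesis genes examined here are 34 genes, chosen by a fixed list of symbols and matched to the 49671 Ensembl genes of the count table. They comprise 5 regulators, 7 genes of the mevalonate steps, 11 genes of the steps that lead to squalene and cholesterol, 9 fatty acid genes and 2 genes of sterol transport. Every listed gene was found, and all 34 were among the 17812 genes that passed the filter on low counts. RNA-seq libraries were made from mouse brain tissue that had been formalin-fixed and paraffin-embedded, in 4 groups of 3 libraries. The IDH1_R132H tumours are labelled with the mutant isocitrate dehydrogenase 1 that is common in human diffuse glioma, the IDH1WT tumours with the wild-type enzyme, and the PDGFA tumours with the platelet-derived growth factor A chain. All tumours arose in N::TVA mice with homozygous floxed alleles that include Cdkn2a and Atrx. TVA is an avian receptor that lets RCAS viruses enter mouse cells, and N:: stands in the published line for the Nestin promoter, which is active in neural progenitors. The normal brains came from mice of the same floxed genotype that lacked TVA. Neither age, sex, batch nor litter is labelled, nor whether PDGFA was also delivered to the IDH1 tumours.

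Cells make cholesterol from acetyl-CoA through mevalonate, squalene and a long series of sterol intermediates, and make fatty acids from the same precursor through malonyl-CoA. The transcription factors SREBP1 and SREBP2 switch on both sets of genes: when membrane sterol is low, SCAP carries them from the endoplasmic reticulum to the Golgi, where they are cut and released, and when sterol is plentiful, INSIG proteins hold SCAP back. The adult brain is nearly closed to blood cholesterol and makes its own, with the highest rates in cells that form myelin, and the mutant IDH1 enzyme consumes NADPH, which both pathways need.

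The total count was 6507923 to 10019818 in the IDH1_R132H tumours, 7023188 to 14277395 in the IDH1WT tumours, 9996171 to 10520489 in the PDGFA tumours and 8374528 to 11731050 in the normal brains. Levels are given as CPM, read counts scaled to library size with TMM factors, and n is 3 libraries a group, or 9 for all tumours. The labels do not say that each library is a separate animal, so a p-value measures the spread between these libraries. Some libraries stood apart. In IDH1_R132H tumour 3, 46.6% of the count lay on ribosomal-RNA-like loci, against 2.95% to 19.5% in the other 11 libraries. PDGFA tumour 1 lay near normal brain in its summed oligodendrocyte precursor markers, at 666 CPM against 1380 to 6890 CPM in the other 8 tumours and 511 to 547 CPM in normal brains. Normal brains 1 and 2 nearly matched: the chi-square per gene was 2.59 between them, and 30 and 28.9 for the pairs with normal brain 3. Idh1 stood at 53.7, 52.2 and 70.7 CPM in IDH1_R132H tumours, 47.6, 56.3 and 39.1 CPM in IDH1WT tumours, 22.2, 36.2 and 46.7 CPM in PDGFA tumours and 22.5, 23.8 and 27 CPM in normal brains, with mutant and wild-type reads not told apart.

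Scd2, a stearoyl-CoA desaturase that makes monounsaturated fatty acids and the main form in mouse brain, had the highest level per length of the 34 genes. Its mean was 345 RPKM (CPM per kilobase of exon) in IDH1_R132H tumours, 295 RPKM in IDH1WT tumours, 222 RPKM in PDGFA tumours and 220 RPKM in normal brains. Scd1, its close relative, followed at a mean of 51.2 RPKM over the 12 libraries, then the mevalonate gene Hmgcs1 at 46, Fasn at 30.5 and Fads1 at 29. The lowest were Idi1 at 0.34, whose counts ran from 7 to 18 a library, Fdps at 0.84, whose counts ran from 15 to 59, and Tm7sf2 at 1.8. Counts of some members are uncertain because their transcripts share sequence with other annotated genes, and how reads with several matches were counted is not given in the sources used here. Of the 50-base windows along the longest coding transcript, 86.4% also occurred in another gene for Fdps, 52.6% for Acaca, 45.9% for Acat2, 30.7% for Fdft1, 30.5% for Idi1, 13.6% for Hmgcs1 and 13.1% for Scap. That share was 0 for Sqle, Nsdhl, Dhcr7, Fasn, Elovl5, Fads1 and Abca1, 4.66% for Scd1 and 4.01% for Scd2.

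The first question was how the pathway stands in tumours against normal brain, with equal weight for each of the 3 tumour groups. Most of the 34 genes lay somewhat higher in tumours, and the sterol gene Sqle was the member that passed the test. The log2 fold change was above 0 for 29 of 34 genes, against 48.7% of all 17812 genes, and its median was 0.23, against -0.01 over all genes. Without both IDH1_R132H tumour 3 and PDGFA tumour 1 these were 24 of 34 and 0.21. By edgeR's quasi-likelihood test with Benjamini-Hochberg adjustment under 0.05 over all genes, 1 member rose and 0 fell, against a background of 5.22% of all genes called, 3.71% higher and 1.5% lower. At an unadjusted p under 0.05 the counts were 10 higher and 1 lower, where all genes gave 13.3% higher and 10.3% lower. All 9 tumours lay above all 3 normal brains for 6 members (Acat2, Hmgcs1, Sqle, Cyp51, Dhcr7 and Elovl6), with 4.67% of all genes doing so. Those 6 remained without IDH1_R132H tumour 3, and without PDGFA tumour 1 Scd2, Elovl5 and Abca1 joined them, where 10.5% of all genes did the same. DESeq2 called 5 members, Abca1, Cyp51, Dhcr7, Elovl6 and Sqle, and 11.7% of all genes. The edgeR call of Sqle was lost without any of the normal brains, where 0 to 3 genes of the whole table were called, and also when the alike normal brains 1 and 2 were summed into 1 library. Fewer cells of a type and less RNA per cell cannot be told apart in these bulk samples.

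**Figure D1:**
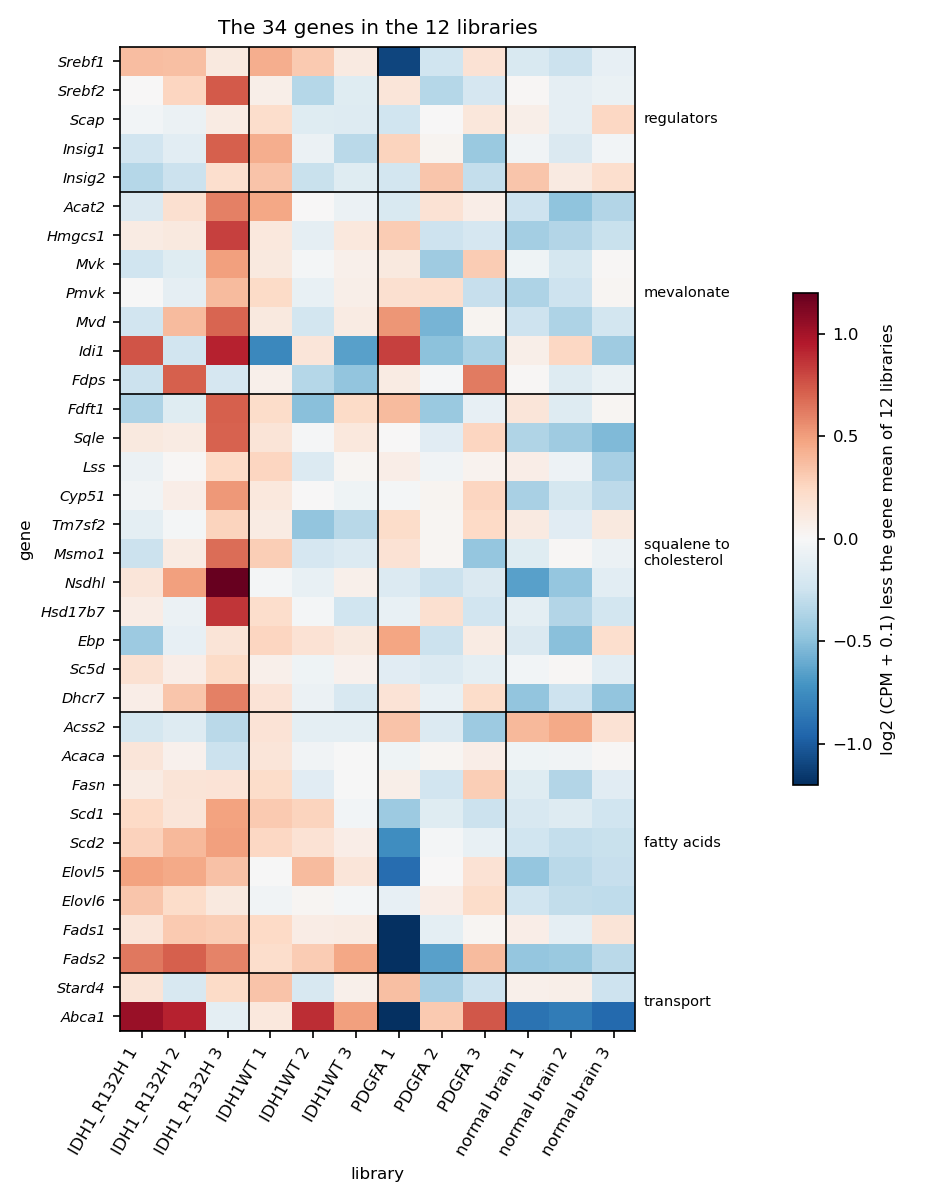
Levels of the 34 genes (rows, grouped by role) in the 12 libraries (columns). Colour is log2 (CPM + 0.1) less the gene's mean. IDH1_R132H tumour 3 is the reddest column among the mevalonate and squalene to cholesterol genes, PDGFA tumour 1 the bluest among the fatty acid genes, and the normal brains are pale blue in most rows.

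In tumours against normal brain the log2 fold changes of the regulators ran from -0.27 to 0.27, and 0 of 5 passed the test in any of the 7 comparisons. Against normal brain the largest was 0.46 in IDH1_R132H tumours and 0.47 in IDH1WT tumours. Srebf2, which encodes the factor that drives the sterol genes, stood at 157, 187 and 260 CPM in IDH1_R132H tumours, 164, 123 and 141 CPM in IDH1WT tumours, 173, 123 and 136 CPM in PDGFA tumours and 158, 145 and 148 CPM in normal brains. IDH1_R132H tumour 3 was the highest library, and the other 8 tumours spread on both sides of normal brain (tumour against normal log2 fold change 0.1, SE 0.16, edgeR adjusted p = 0.77). Srebf1, which encodes the factor that drives fatty acid genes, stood at 62.3, 61.9 and 52.5 CPM in IDH1_R132H tumours, 65.5, 59.9 and 52 CPM in IDH1WT tumours, 22.5, 40.9 and 54.4 CPM in PDGFA tumours and 42.6, 40.4 and 45.2 CPM in normal brains. The IDH1_R132H and IDH1WT tumours all lay above normal brain, and PDGFA tumour 1 lay lowest of all. Scap, the escort of both factors, ran from 61.4 to 83.6 CPM in tumours and from 67.1 to 85.8 CPM in normal brains. Insig1, itself an SREBP target, ran from 24.6 to 55.1 CPM in tumours and from 29.7 to 32.6 CPM in normal brains, with its highest level in IDH1_R132H tumour 3. Insig2, the form not driven by SREBP in most tissues, ran from 32.2 to 51.7 CPM in tumours and from 44 to 51.3 CPM in normal brains.

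The mevalonate steps turn acetyl-CoA into farnesyl diphosphate. All 7 genes had a log2 fold change above 0 in tumours against normal brain, with a median of 0.26, and 0 of 7 passed the test. Hmgcs1, the cytosolic HMG-CoA synthase, stood at 220, 223 and 362 CPM in IDH1_R132H tumours, 224, 190 and 224 CPM in IDH1WT tumours, 253, 173 and 178 CPM in PDGFA tumours and 155, 161 and 170 CPM in normal brains. Acat2, the thiolase that makes acetoacetyl-CoA, stood at 21, 27.1 and 36.1 CPM in IDH1_R132H tumours, 32.7, 23.8 and 22.5 CPM in IDH1WT tumours, 20.8, 26.7 and 25.1 CPM in PDGFA tumours and 19.9, 16.9 and 18.6 CPM in normal brains. For both genes the ranges of tumours and normal brains did not meet, though the lowest tumour of each lay close to the highest normal brain. The log2 fold change was 0.48 (SE 0.18, edgeR adjusted p = 0.13) for Hmgcs1 and 0.5 (SE 0.18, adjusted p = 0.12) for Acat2. The kinases Mvk (log2 fold change 0.13) and Pmvk (0.26), the decarboxylase Mvd (0.41), the isomerase Idi1 (0.09) and the farnesyl diphosphate synthase Fdps (0.15) overlapped normal brain.

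The genes of the later steps, which lead by way of squalene to cholesterol, held the member that passed this test. In tumours against normal brain 1 of 11 rose, 10 of 11 had a log2 fold change above 0, and the median was 0.19. Sqle (chromosome 15, 59315077 to 59331192 on GRCm38), the squalene epoxidase and a rate-limiting enzyme, stood at 52.2, 51.4 and 78.7 CPM in IDH1_R132H tumours, 53.7, 47.7 and 52.6 CPM in IDH1WT tumours, 48.3, 43.9 and 57.7 CPM in PDGFA tumours and 37.5, 35.7 and 33.3 CPM in normal brains. Every tumour lay above every normal brain, and IDH1_R132H tumour 3 lay highest. Its mean was 54 ± 10.1 CPM in tumours and 35.5 ± 2.14 CPM in normal brains (SD, n = 9 and 3), and its log2 rise was 0.6 (SE 0.15, edgeR adjusted p = 0.042). Without IDH1_R132H tumour 3 the change was 0.51 (SE 0.12, adjusted p = 0.036). Over the 12 fits that each left out 1 library the change was 0.51 to 0.64, with adjusted p-values of 0.025 to 0.19. The call was kept in 4 of them and lost without IDH1_R132H tumour 2, PDGFA tumour 3, any of the IDH1WT tumours or any of the normal brains.

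Cyp51 (chromosome 5, 4081145 to 4104746), the lanosterol demethylase, stood at 52.9, 57.8 and 78.2 CPM in IDH1_R132H tumours, 59.5, 54.8 and 52.7 CPM in IDH1WT tumours, 53.8, 56 and 65.5 CPM in PDGFA tumours and 41.7, 47.3 and 43.9 CPM in normal brains. The tumour against normal log2 fold change was 0.41 (SE 0.13, edgeR adjusted p = 0.09), with no overlap of the groups. Dhcr7 (chromosome 7, 143823145 to 143848410), the sterol reductase of the last step to cholesterol in the Kandutsch-Russell branch, stood at 26.7, 31.7 and 38.3 CPM in IDH1_R132H tumours, 28.2, 24 and 22 CPM in IDH1WT tumours, 28.2, 23.7 and 29.5 CPM in PDGFA tumours and 18.2, 21.2 and 18.1 CPM in normal brains. All tumours again lay above all normal brains, by little at the nearest pair, and the change was 0.54 (SE 0.15, edgeR adjusted p = 0.054).

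Nsdhl (chromosome X, 72918557 to 72958514), a sterol dehydrogenase that removes methyl groups from the ring together with Msmo1 and Hsd17b7, set the IDH1_R132H tumours apart. It stood at 15.7, 20.1 and 33.7 CPM in IDH1_R132H tumours, 14, 13.4 and 14.8 CPM in IDH1WT tumours, 12.7, 11.9 and 12.6 CPM in PDGFA tumours and 9.01, 10.3 and 13 CPM in normal brains. All IDH1_R132H tumours lay above the other 9 libraries, IDH1_R132H tumour 1 by little and tumour 3 by much. Nsdhl is X-linked and the labels give no sex: IDH1_R132H tumour 2 and IDH1WT tumour 1 had Xist counts of 19062 and 12269, and the other 10 libraries had 10 to 284. The part of sex in the Nsdhl levels was not tested. Sc5d, the lathosterol desaturase, stood at 69.2, 64.2 and 71.4 CPM in IDH1_R132H tumours, 63.5, 58.7 and 63 CPM in IDH1WT tumours, 55.5, 54.3 and 56.1 CPM in PDGFA tumours and 59.4, 61.6 and 55.8 CPM in normal brains. Its IDH1_R132H tumours lay above all other libraries too, though by less, while tumours as a whole had a log2 fold change of 0.06 against normal brain. The other members of these steps overlapped normal brain in tumours, with log2 fold changes of 0.04 for Fdft1 (squalene synthase), 0.16 for Lss (lanosterol synthase), -0.03 for Tm7sf2 (a sterol reductase), 0.12 for Msmo1 (the methylsterol oxidase), 0.33 for Hsd17b7 (a ketoreductase) and 0.19 for Ebp (a sterol isomerase).

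**Figure D2:**
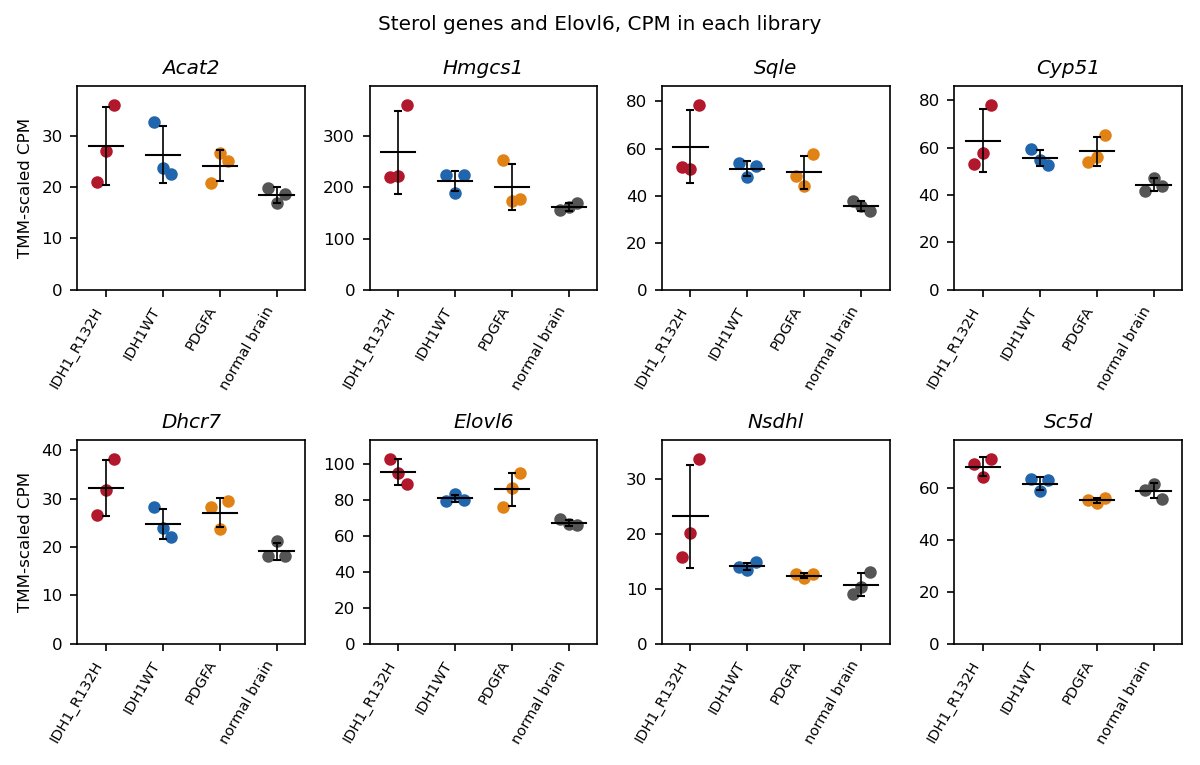
Levels of 8 members, in CPM, by group (IDH1_R132H, IDH1WT, PDGFA and normal brain); points are libraries 1 to 3 from left to right, and the bars are mean and SD (n = 3). Tumours lie above normal brain for Acat2, Hmgcs1, Sqle, Cyp51, Dhcr7 and Elovl6, and IDH1_R132H tumours lie above every other library for Nsdhl and Sc5d.

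Promoters of 27 of the 34 genes were found in the RefSeq table of the GRCm38.p6 build, covering 250 bases before to 50 after each start site; Scd1, Scd2, Fdps, Fdft1, Sqle, Fads1 and Stard4 are named only. Patterns were searched on both strands. A gene with several start sites counts as holding a pattern if any of them does, among members and among all genes. The letters CCAAT, the box bound by NF-Y, which works beside SREBP at sterol genes, occurred in 21 of the 27 genes (77.8%), against 41.1% of 27025 genes with a promoter and 42.5% of the 11897 that were also tested here. The letters GGGCGG, the box bound by Sp1, occurred in 22 of the 27 (81.5%), against 38.2% of all genes and 66.3% of tested genes. The sterol regulatory element pattern TCACNCCAC occurred in 1 of the 27 genes, Hmgcs1 (3.7%, against 1.44% of all genes), and the looser TCACNCNAC, which contains it, in 2, Hmgcs1 and Nsdhl (7.41%, against 3.15%). A match is a description of the letters, and no test was made. Of the RefSeq starts of Dhcr7 only the third holds CCAAT. The 250 bases before the start site are printed for Hmgcs1 and Nsdhl because they hold the sterol pattern, for Cyp51 and Dhcr7 (the third of its RefSeq starts) as members above normal brain in every tumour that hold CCAAT, and for Elovl6 as a member above normal brain in every tumour that holds neither. Capitals mark TCACNCCAC or TCACNCNAC and CCAAT, which reads ATTGG when it lies on the other strand.
Hmgcs1, chr13:119690101-119690350, plus strand: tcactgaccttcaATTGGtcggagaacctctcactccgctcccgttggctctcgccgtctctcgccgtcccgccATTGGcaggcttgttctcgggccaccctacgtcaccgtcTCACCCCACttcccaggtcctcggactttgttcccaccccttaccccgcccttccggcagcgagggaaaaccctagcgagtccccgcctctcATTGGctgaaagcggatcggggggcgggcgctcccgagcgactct
Nsdhl, chrX:72918271-72918520, plus strand: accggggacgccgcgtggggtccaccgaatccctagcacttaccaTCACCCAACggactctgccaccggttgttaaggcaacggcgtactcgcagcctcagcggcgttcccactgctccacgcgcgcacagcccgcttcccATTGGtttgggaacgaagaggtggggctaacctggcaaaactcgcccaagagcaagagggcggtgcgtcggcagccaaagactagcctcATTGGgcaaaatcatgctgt
Cyp51, chr5:4104698-4104947, minus strand: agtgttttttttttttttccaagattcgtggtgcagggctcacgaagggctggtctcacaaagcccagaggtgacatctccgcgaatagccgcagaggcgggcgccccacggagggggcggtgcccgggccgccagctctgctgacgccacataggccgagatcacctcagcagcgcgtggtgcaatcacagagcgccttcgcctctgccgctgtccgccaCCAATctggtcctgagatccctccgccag
Dhcr7, chr7:143829964-143830213, plus strand: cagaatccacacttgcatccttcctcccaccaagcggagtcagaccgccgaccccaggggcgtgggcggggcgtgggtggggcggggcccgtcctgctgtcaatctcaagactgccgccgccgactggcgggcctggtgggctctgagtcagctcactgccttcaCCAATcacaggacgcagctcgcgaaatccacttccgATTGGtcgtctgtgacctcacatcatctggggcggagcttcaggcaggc
Elovl6, chr3:129532136-129532385, plus strand: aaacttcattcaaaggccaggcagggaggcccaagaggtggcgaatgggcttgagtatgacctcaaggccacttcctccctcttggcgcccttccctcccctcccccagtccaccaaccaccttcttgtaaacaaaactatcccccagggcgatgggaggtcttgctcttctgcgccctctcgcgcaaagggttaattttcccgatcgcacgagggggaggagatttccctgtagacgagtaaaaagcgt

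Of the fatty acid genes, Elovl6 lay above normal brain in every tumour. The desaturases had their highest group mean in IDH1_R132H tumours, with overlap between some tumour groups. In tumours against normal brain 0 of 9 passed the test, 7 of 9 had a log2 fold change above 0, and the median was 0.28. Elovl6 (chromosome 3, 129532355 to 129638495), which elongates palmitate to stearate, stood at 103, 95 and 88.6 CPM in IDH1_R132H tumours, 79.4, 83.2 and 80.2 CPM in IDH1WT tumours, 76.1, 86.5 and 94.8 CPM in PDGFA tumours and 69.3, 66.5 and 66.2 CPM in normal brains. Every tumour lay above normal brain (log2 fold change 0.37, SE 0.11, edgeR adjusted p = 0.058), and its promoter, shown above, holds none of the capitalised patterns. Fasn, the fatty acid synthase, averaged 350 ± 39.9 CPM in tumours and 287 ± 24.1 CPM in normal brains (SD, n = 9 and 3), with overlap. Acaca, the acetyl-CoA carboxylase that makes malonyl-CoA, ran from 53.5 to 71.1 CPM in tumours and from 61.7 to 64.5 CPM in normal brains. Acss2, which makes acetyl-CoA from acetate, lay on the other side: it stood at 38.7, 40.2 and 35.9 CPM in IDH1_R132H tumours, 50.3, 41.3 and 41.3 CPM in IDH1WT tumours, 56.8, 39.9 and 33.1 CPM in PDGFA tumours and 58.9, 61.7 and 50.7 CPM in normal brains. PDGFA tumour 1 alone reached the normal brains, and the change was -0.45 (SE 0.15, edgeR adjusted p = 0.097).

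The desaturases Scd1, Scd2, Fads1 and Fads2, with the elongase Elovl5, had their highest group mean in IDH1_R132H tumours and their lowest tumour in PDGFA tumour 1. Scd2 (chromosome 19, 44293674 to 44306864) stood at 1740, 1890 and 2020 CPM in IDH1_R132H tumours, 1710, 1620 and 1520 CPM in IDH1WT tumours, 862, 1420 and 1350 CPM in PDGFA tumours and 1220, 1180 and 1200 CPM in normal brains. Fads2 (chromosome 19, 10062765 to 10101746), which starts the conversion of essential to long polyunsaturated fatty acids, stood at 66.9, 70.9 and 65.3 CPM in IDH1_R132H tumours, 49.9, 53.4 and 59.7 CPM in IDH1WT tumours, 16.3, 27.4 and 56.2 CPM in PDGFA tumours and 31.3, 31.7 and 34.4 CPM in normal brains. For both genes the IDH1_R132H tumours lay above all other libraries and the IDH1WT tumours above all normal brains, while the PDGFA tumours lay on both sides of normal brain. Scd1 stood at 290, 272 and 344 CPM in IDH1_R132H tumours, 306, 297 and 241 CPM in IDH1WT tumours, 182, 222 and 206 CPM in PDGFA tumours and 215, 221 and 209 CPM in normal brains. Elovl5, which elongates polyunsaturated fatty acids, stood at 123, 120 and 112 CPM in IDH1_R132H tumours, 87.3, 114 and 97.3 CPM in IDH1WT tumours, 46.4, 87.8 and 99.1 CPM in PDGFA tumours and 63.5, 69.9 and 72.6 CPM in normal brains. Fads1, the next desaturase after Fads2 in that conversion, stood at 150, 169 and 166 CPM in IDH1_R132H tumours, 160, 144 and 145 CPM in IDH1WT tumours, 58.2, 125 and 138 CPM in PDGFA tumours and 143, 126 and 151 CPM in normal brains. Scd1 and Elovl5 thus placed all IDH1_R132H and IDH1WT tumours above normal brain, which Fads1 did not.

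**Figure D3:**
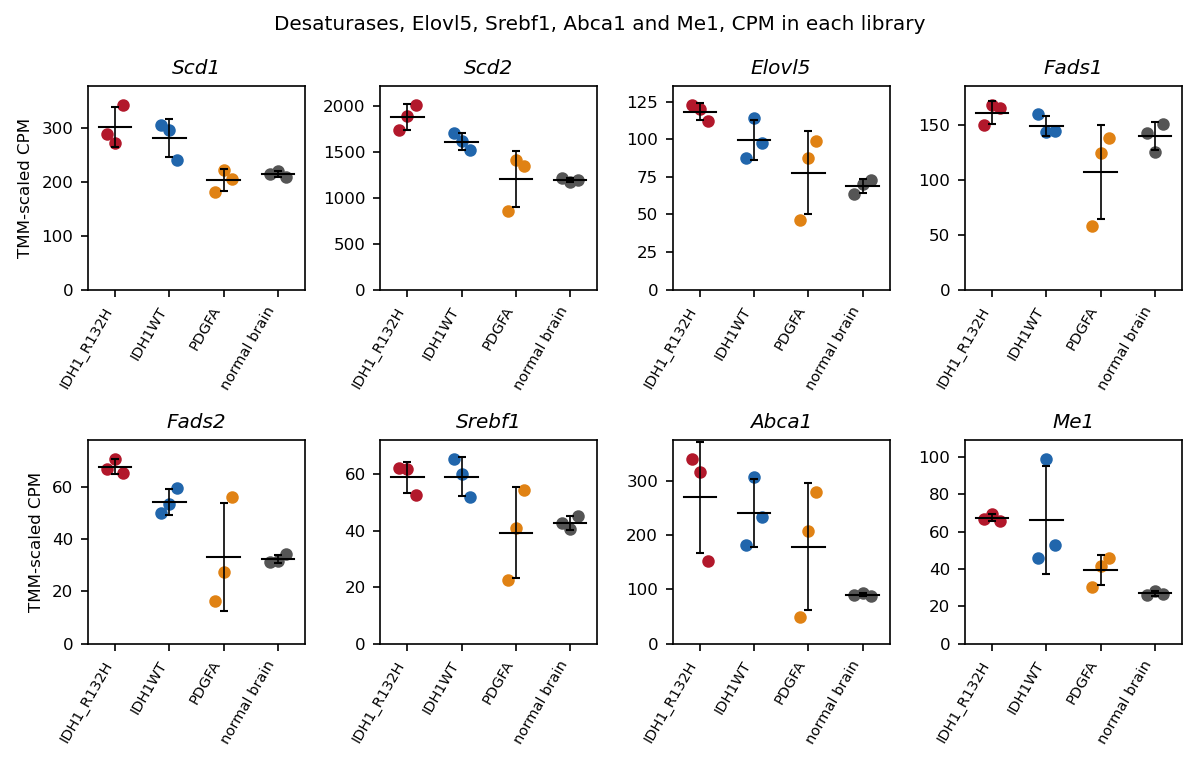
Levels of 5 fatty acid members, Srebf1, Abca1 and the NADPH-producing enzyme gene Me1, in CPM, by group (IDH1_R132H, IDH1WT, PDGFA and normal brain); points are libraries 1 to 3 from left to right, and the bars are mean and SD (n = 3). PDGFA tumour 1 (leftmost orange point) is the lowest of the 9 tumours in every panel, and IDH1_R132H tumours lie above every other library for Scd2 and Fads2.

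Abca1 (chromosome 4, 53030787 to 53159895), the exporter of cellular cholesterol that oxysterol-bound LXR switches on, spread widely among the tumours. It stood at 341, 316 and 153 CPM in IDH1_R132H tumours, 181, 307 and 234 CPM in IDH1WT tumours, 49.6, 207 and 279 CPM in PDGFA tumours and 89.8, 93.2 and 87.1 CPM in normal brains. PDGFA tumour 1 lay below normal brain and the other 8 tumours above it. The tumour against normal log2 fold change was 1.33 (SE 0.42, edgeR adjusted p = 0.08) with all libraries and 1.47 (SE 0.25, adjusted p = 0.0035) without PDGFA tumour 1, and DESeq2 gave 1.33 (adjusted p = 0.0084) with all libraries. PDGFA tumour 1 was also lowest in the summed microglia and macrophage markers, which stood at 219 to 399 CPM in IDH1_R132H tumours, 182 to 302 CPM in IDH1WT tumours, 32 to 361 CPM in PDGFA tumours and 115 to 193 CPM in normal brains. Their part in the Abca1 level was not tested. Stard4, a carrier of sterol between membranes, ran from 30.7 to 52.1 CPM in tumours and from 34.1 to 42.5 CPM in normal brains.

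Each tumour group was then set against normal brain, to see in which genotype the pathway differed. These comparisons share the 3 normal brains. In IDH1_R132H tumours 4 members rose and 0 fell (background 7.17% of all genes called, 4.83% higher and 2.35% lower): Nsdhl by a log2 value of 1.09 (SE 0.25, edgeR adjusted p = 0.027), Sqle by 0.77 (SE 0.18, adjusted p = 0.028), Dhcr7 by 0.75 (SE 0.18, adjusted p = 0.029) and Elovl6 by 0.5 (SE 0.13, adjusted p = 0.035). Of the 34 genes 31 had a log2 fold change above 0 (49.3% of all genes) and the median was 0.38; without IDH1_R132H tumour 3 these were 25 and 0.26. The groups did not overlap for 16 members that lay higher (19.4% of all genes) and for Acss2, which lay lower (18.8%). By role, 6 of the 11 later sterol genes, 6 of 9 fatty acid genes, 2 of 7 mevalonate genes, Srebf1 and Abca1 made up the 16. Without IDH1_R132H tumour 3 the change of Nsdhl was 0.71 (adjusted p = 0.067), of Sqle 0.53 (adjusted p = 0.073) and of Dhcr7 0.59 (adjusted p = 0.084). Elovl6, at 0.53 (SE 0.14), was the 1 member still called, with 4.53% of all genes. Its edgeR adjusted p rounds to 0.05, at the threshold. Over the 12 fits that each left out 1 library, Elovl6 kept its call in 5 and each of Nsdhl, Sqle and Dhcr7 in 7. DESeq2 called 11 members and 13.7% of all genes. EdgeR called 10 members and 12.2% of all genes without PDGFA tumour 1, and 8 members and 11% of all genes without PDGFA tumour 3. Without IDH1_R132H tumour 2, or without any of the normal brains, 0 members were called, with 0 or 1 gene of the whole table.

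In IDH1WT tumours 0 members passed edgeR's test against normal brain (background 1.72%), 6 had an unadjusted p under 0.05 and lay higher (11.6% of all genes did), and DESeq2 called 1, Abca1, with 7.14% of all genes. EdgeR called 2 members and 5.79% of all genes without PDGFA tumour 1, and 1 member and 5.36% of all genes without PDGFA tumour 3. The log2 fold change was above 0 for 27 of 34 (49% of all genes), with a median of 0.23, and 13 members lay higher without overlap (17.4% of all genes). Without IDH1WT tumour 1, 22 of 34 were above 0 and the median was 0.1. Sqle had a log2 fold change of 0.53 (SE 0.18), Dhcr7 0.37 (SE 0.18), Nsdhl 0.38 (SE 0.25), Fads2 0.74 (SE 0.32) and Abca1 1.42 (SE 0.48) in IDH1WT tumours. In PDGFA tumours 0 members passed edgeR's test (background 0.303%), 4 had an unadjusted p under 0.05 and lay higher (7.35% of all genes did), and DESeq2 called 0. The log2 fold change was above 0 for 24 of 34 (50.5% of all genes), with a median of 0.12, and 6 lay higher without overlap (8.23% of all genes), Acat2, Hmgcs1, Sqle, Cyp51, Dhcr7 and Elovl6. Without PDGFA tumour 1 the 6 became 10, where 20.7% of all genes did the same, with Acaca, Elovl5, Scd2 and Abca1 added. The fatty acid genes had a median log2 fold change of 0.49 in IDH1_R132H tumours, 0.27 in IDH1WT tumours and 0.04 in PDGFA tumours, and the later sterol genes 0.28, 0.23 and 0.2 in the same order of groups.

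**Figure D4:**
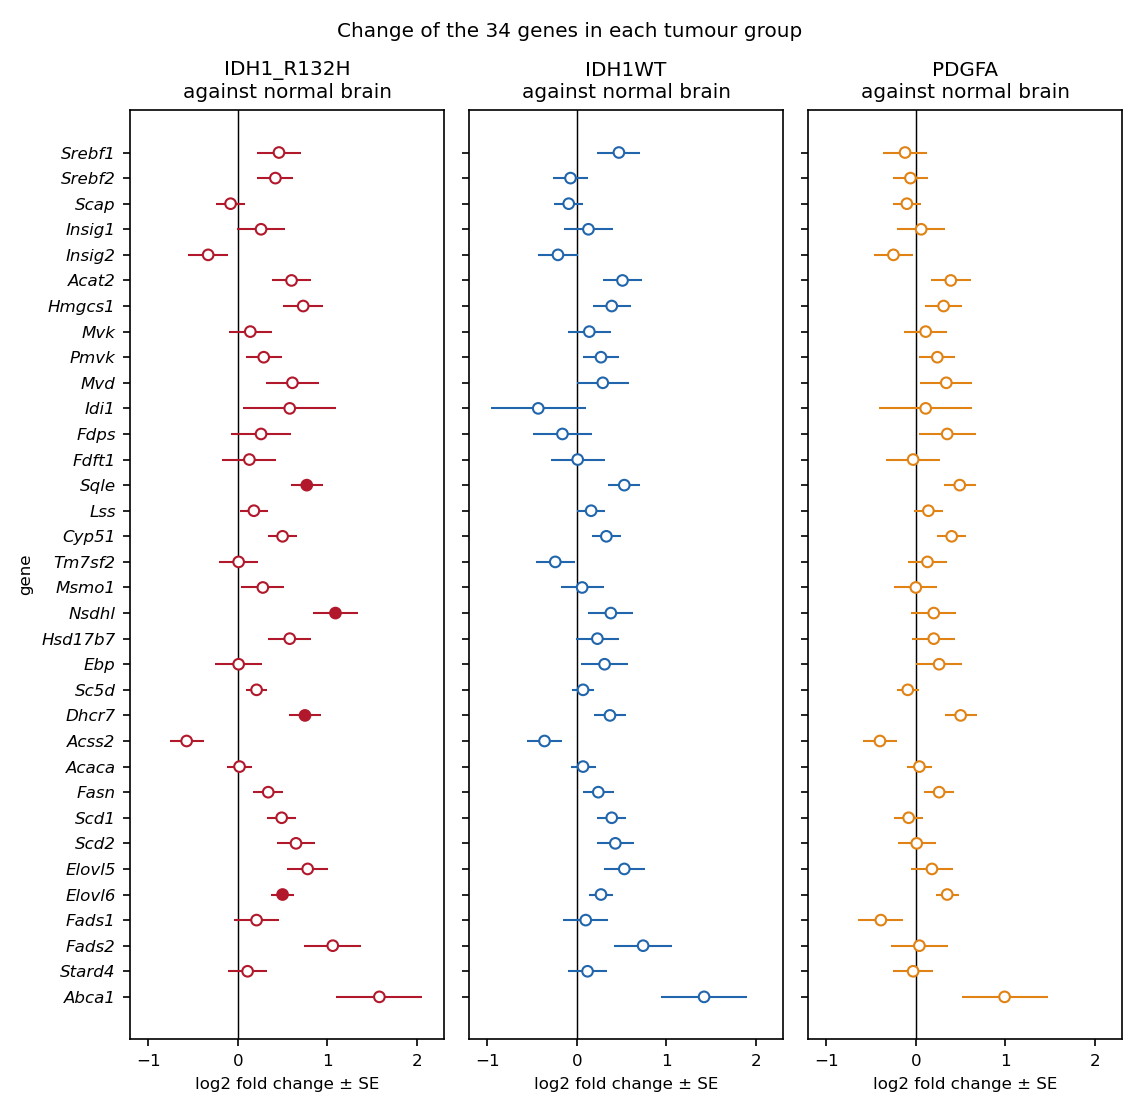
Log2 fold change of each of the 34 genes against normal brain in IDH1_R132H, IDH1WT and PDGFA tumours, with SE as bars; filled points passed edgeR's test (adjusted p under 0.05). The 4 filled points are Sqle, Nsdhl, Dhcr7 and Elovl6 in IDH1_R132H tumours, and most points of each panel lie right of 0.

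Whether the mutant enzyme changes these genes within tumours is asked by IDH1_R132H against IDH1WT. By edgeR 0 of 34 members passed the test and 0% of all genes were called, and DESeq2 called 0 members. The unadjusted p was under 0.05 for 2 members that lay higher, Nsdhl (log2 fold change 0.71, SE 0.25, edgeR adjusted p = 1) and Srebf2 (0.5, SE 0.2, adjusted p = 1), where 1.25% of all genes were. Without IDH1_R132H tumour 3 these changes were 0.35 and 0.27. The log2 fold change was above 0 for 28 of 34 members, against 49.3% of all genes, with a median of 0.15. Without IDH1_R132H tumour 3, 20 of 34 were above 0 and the median was 0.06; without IDH1_R132H tumour 1 or IDH1WT tumour 1 the median was 0.24. All IDH1_R132H tumours lay above all IDH1WT tumours for Elovl6, Fads2, Nsdhl, Sc5d and Scd2, 5 of 34 where 2.96% of all genes did, and below them for Acss2, where 3.79% did. The median SE of a member was 0.22 in this comparison, so differences of the size seen for most members were not detectable here.

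Against PDGFA tumours, 0 of 34 members in IDH1_R132H tumours passed edgeR's test, again with 0% of all genes called, and DESeq2 called 1, Scd1 (adjusted p = 0.037), with 0.82% of all genes. The log2 fold change was above 0 for 28 of 34 members (48.9% of all genes), with a median of 0.23. Without IDH1_R132H tumour 3, 21 of 34 were above 0 and the median was 0.04; without both that tumour and PDGFA tumour 1 these were 23 and 0.11, and without IDH1_R132H tumour 1 they were 30 and 0.36. The unadjusted p was under 0.05 for 9 members that lay higher, where 5.03% of all genes were: Nsdhl, Scd1, Scd2, Fads2, Fads1, Elovl5, Sc5d, Srebf1 and Srebf2. Their log2 fold changes were 0.89 (SE 0.25) for Nsdhl, 1.02 (SE 0.32) for Fads2, 0.64 (SE 0.21) for Scd2, 0.57 (SE 0.16) for Scd1, 0.6 (SE 0.23) for Elovl5 and 0.59 (SE 0.25) for Fads1. The IDH1_R132H tumours lay above all PDGFA tumours for 7 members, where 5.86% of all genes did, and 5 of those 7 were Scd1, Scd2, Fads1, Fads2 and Elovl5. Without PDGFA tumour 1 the values were 0.69 for Fads2, 0.43 for Scd2, 0.48 for Scd1, 0.33 for Elovl5 and 0.29 for Fads1; without PDGFA tumour 3 Fads2 was at 1.61 (edgeR adjusted p = 0.045), the 1 member called, with 0.229% of all genes. Without PDGFA tumour 1 the same 7 genes were among 11 that did not overlap (9.51% of all genes). IDH1WT against PDGFA tumours gave 0 members by edgeR and 0% of all genes called, 3 higher with an unadjusted p under 0.05 (3.16% of all genes), and 0 by DESeq2. Those 3 were Scd1 at 0.47 (SE 0.16), Srebf1 at 0.59 (SE 0.24) and Fads2 at 0.7 (SE 0.32). All IDH1WT tumours lay above all PDGFA tumours for 5 members, Scd1, Scd2, Fads1, Nsdhl and Sc5d. Each of these also separated IDH1_R132H from PDGFA tumours. In IDH1WT against PDGFA 25 of 34 members were above 0, with a median of 0.04. Without IDH1WT tumour 1 these were 11 and -0.08, and without IDH1WT tumour 2 they were 28 and 0.11. The matching shares of all genes are not given here.

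Sterol and fatty acid genes set different libraries apart. Averaged over a role as log2 CPM centred on each gene, IDH1_R132H tumour 3 stood at 0.52 for the mevalonate genes and 0.56 for the later sterol genes, where the other 8 tumours ran from -0.19 to 0.26 and from -0.13 to 0.17. For the fatty acid genes the same tumour stood at 0.21, beside 0.24 and 0.25 in the other IDH1_R132H tumours. PDGFA tumour 1 stood at 0.26 for the mevalonate genes and 0.1 for the later sterol genes, but at -0.49 for the fatty acid genes, where the other 8 tumours ran from -0.14 to 0.25. Its summed myelin markers were 11500 CPM, against 2200 to 6600 CPM in the other 8 tumours and 3500 to 3570 CPM in normal brains, and its summed astrocyte markers 1130 CPM, against 3600 to 6570 CPM and 5250 to 5470 CPM. The part of these cell types in the fatty acid values was not tested. The normal brains stood at -0.23 to -0.18 for the mevalonate genes, -0.23 to -0.17 for the later sterol genes and -0.17 to -0.13 for the fatty acid genes.

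**Figure D5:**
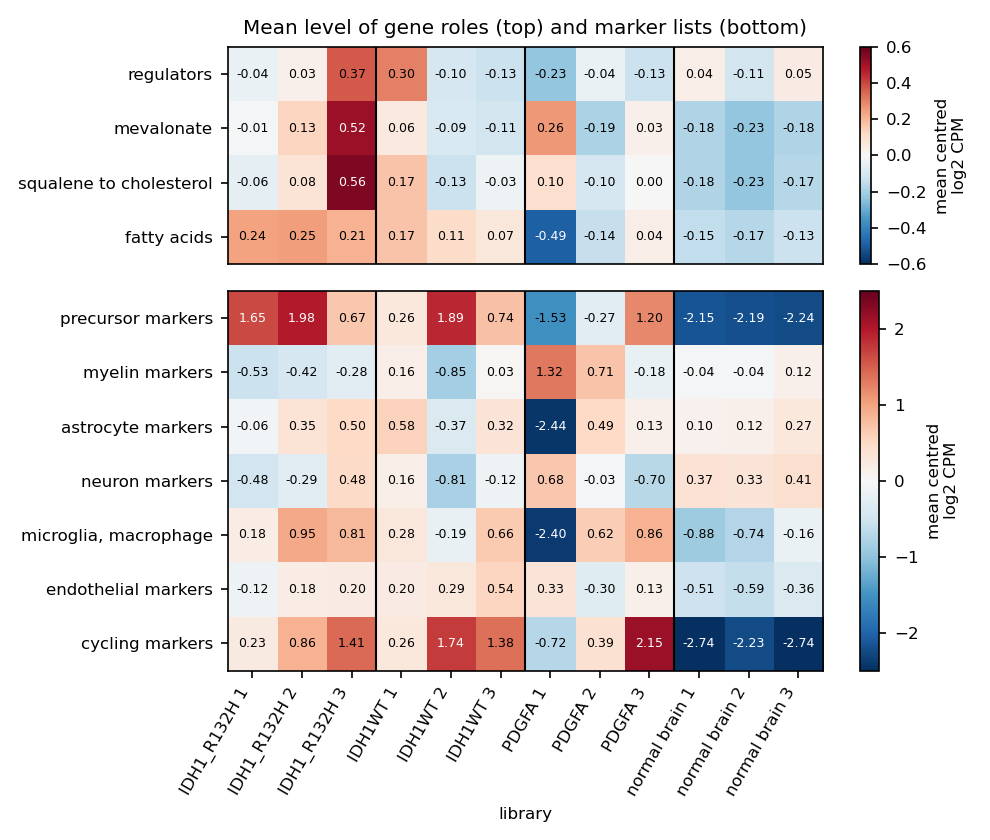
Mean log2 CPM, each gene centred on its mean of the 12 libraries, for 4 roles of the pathway (top) and 7 lists of cell type markers (bottom), in each library (columns). In the top panel IDH1_R132H tumour 3 reaches 0.56 for the later sterol genes and PDGFA tumour 1 falls to -0.49 for the fatty acid genes; in the bottom panel precursor and cycling markers are lowest in normal brains.

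Genes that work around the pathway were taken from 6 further lists. Of all genes 3.71% rose and 1.5% fell in tumours against normal brain. In IDH1_R132H tumours 4.83% of all genes rose, and in IDH1WT tumours 1.57% did. The few calls in each list are to be read beside those shares. Among 22 other genes of fatty acid synthesis and NADPH supply, 3 rose and 0 fell in tumours against normal brain: Me1, the malic enzyme that yields NADPH, by 1.05 (SE 0.22, edgeR adjusted p = 0.024), Pgd, of the pentose phosphate pathway, by 0.74 (SE 0.16, adjusted p = 0.025), and Slc25a1, the mitochondrial citrate exporter, by 0.6 (SE 0.16, adjusted p = 0.049). Me1 stood at 66.9, 69.5 and 65.7 CPM in IDH1_R132H tumours, 46.1, 99.1 and 52.9 CPM in IDH1WT tumours, 30.4, 41.8 and 46.1 CPM in PDGFA tumours and 25.9, 28.4 and 26.8 CPM in normal brains, so that every tumour lay above normal brain. Against normal brain IDH1_R132H tumours gave rises of 1.32 for Me1 (edgeR adjusted p = 0.019), 0.87 for Pgd (adjusted p = 0.023) and 0.95 for Slc25a1 (adjusted p = 0.019), and Me1 alone rose in IDH1WT tumours, by 1.29 (adjusted p = 0.032). Among 20 genes of sterol efflux, storage and turnover 1 rose in tumours, Abcg1, a cholesterol exporter and LXR target like Abca1, by 0.55 (SE 0.14, edgeR adjusted p = 0.041), and by 0.77 in IDH1_R132H tumours (adjusted p = 0.022). Among 21 genes of glycerolipid and sphingolipid synthesis 2 rose, Ugt8a, which makes the galactosylceramide of myelin, by 0.92 (SE 0.23, adjusted p = 0.042), and Cers2, a ceramide synthase, by 0.61 (SE 0.15, adjusted p = 0.042).

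Among 12 genes of the isoprenoid branch 1 fell in tumours, where 1.5% of all genes fell. It was Pdss2, which helps to build the side chain of coenzyme Q, at -0.58 (SE 0.15, edgeR adjusted p = 0.041). Among 12 genes that handle SREBP 0 passed the test, with Erlin2 at 0.45 and Erlin1 at 0.23 the nearest. Among 15 genes of fatty acid oxidation 0 passed in tumours, with the carnitine carrier Slc25a20 at 0.75 (SE 0.24, edgeR adjusted p = 0.082). The smallest edgeR adjusted p of that list was 0.054, for a gene not named here. In IDH1_R132H tumours alone against normal brain 1 of the 15 rose (edgeR adjusted p = 0.025), where 4.83% of all genes did. The median log2 fold change in tumours was -0.02 for the fatty acid and NADPH list, 0.05 for efflux, storage and turnover, 0.12 for glycerolipids and sphingolipids, -0.1 for isoprenoids, 0.08 for SREBP handling and 0.09 for oxidation, beside 0.23 for the 34 members and -0.01 for all genes. Between tumour groups 0 genes of these lists passed edgeR's test.

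Markers of several cell types differed between tumours and normal brain, and their part in the differences above was not tested. Of all genes 3.71% rose and 1.5% fell in this comparison. Of 12 oligodendrocyte precursor markers all 12 rose in tumours by edgeR, and their summed level was 2920 to 6890 CPM in IDH1_R132H tumours, 2170 to 6110 CPM in IDH1WT tumours, 666 to 3730 CPM in PDGFA tumours and 511 to 547 CPM in normal brains. Of 12 cycling markers 10 rose, with sums of 191 to 400 CPM, 166 to 550 CPM, 119 to 781 CPM and 12.1 to 19.2 CPM in the same order of groups. Of 12 endothelial markers 6 rose and of 12 astrocyte markers 1 rose, while 0 of 12 myelinating oligodendrocyte, 0 of 12 neuron and 0 of 12 microglia and macrophage markers passed the test. Summed neuron markers ran from 2920 to 7710 CPM in tumours and from 6460 to 6820 CPM in normal brains. The defining markers Pdgfra, Gfap, Rbfox3, Csf1r, Pecam1 and Mki67 were above 0 in every library, the lowest being Mki67 at 0.808 CPM in a normal brain.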

How the data were processed

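Total RNA came from fixed, paraffin-embedded tissue, extracted with a RecoverAll kit per the labels. The authors deposited raw read counts per gene and, in a second table, log2 values that its name calls rlog, used here only as an alternative. The submitters' processing notes name featureCounts 1.5.1, STAR 2.5.2b, Subread and DESeq2 1.16.1, with the GRCm38 build. Which annotation and strand setting were used is not given in the sources used here, so overlapping and antisense genes cannot be told apart. Symbols, coordinates and exon lengths are from GENCODE M21. In R 4.3.3, edgeR 4.0.16 kept 17812 of 49671 genes (filterByExpr, minimum count 10, minimum total 15), scaled libraries by TMM and fitted a robust quasi-likelihood model with 1 coefficient a group to the 12 libraries (8 residual degrees of freedom). Adjusted p-values are Benjamini-Hochberg values over 17812 genes; where no tool is named, they are edgeR's. The tumour comparison weights the 3 tumour groups equally. TMM sets the middle of all genes to no change. The total counts of 6507923 to 14277395 a library set the counting precision, and the spread rests on 3 libraries a group.

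Alternatives were RLE factors, no low count filter, DESeq2 1.42.0, limma 3.58.1 (voom with quality weights, and the deposited log2 values), leaving out libraries, summing normal brains 1 and 2, removing ribosomal-RNA-like loci and fitting the compared groups alone. Counts without overlap were repeated without IDH1_R132H tumour 3 and PDGFA tumour 1, an alternative chosen after seeing the data. The scripts were tested on simulated data with planted changes larger than those of most members, so recovery of smaller changes was not tested. Members and lists were chosen with earlier results of these data known. All 34 members are named; from each other list the text names, for tumours against normal brain, called genes, at most 4 with the smallest p, or else the 2 with the smallest p. Per-library values follow from a call or from groups that do not overlap, and those of Srebf1, Srebf2, Scd1, Elovl5, Fads1, Acss2, Abca1 and Me1 were added after seeing the data. A few genes of the pathway are not reported here.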

Additional observations from a re-analysis of the deposited data

Results flagged for a closer look

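Each of the 34 genes was checked for a tumour far from the other 8, with the gap to the nearest tumour divided by the range of the 9 (Dixon's 95% critical value), which chance passes in about 1 gene in 20. It gave 8 such values, 6 of them in IDH1_R132H tumour 3 and 2 in PDGFA tumour 1. IDH1_R132H tumour 3 was the highest tumour for Srebf2 at 260 CPM (next 187), Hmgcs1 at 362 (next 253), Sqle at 78.7 (next 57.7), Cyp51 at 78.2 (next 65.5), Nsdhl at 33.7 (next 20.1) and Hsd17b7 at 41.2 (next 26.2), all genes of the sterol arm. In this library ribosomal-RNA-like loci took 46.6% of the count and the TMM factor was 0.506, against 0.886 to 1.18 in the other 11. Removing those loci left the counts of called members unchanged in all 7 comparisons. TMM already scales for such reads, so the removal could hardly move the members. The part of library quality in these high values was not tested. PDGFA tumour 1 was the lowest tumour for Elovl5 at 46.4 CPM (next 87.3) and Fads1 at 58.2 (next 125), both fatty acid genes.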

How the results depend on the processing

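No call on a member reversed, but few values had a call to lose. Of 4963 values of single members under alternatives, 4823 kept their side of the threshold. Of those, 4759 were called neither in the main fit nor in the alternative, and 278 of them changed sign. A call was lost by 40 values and gained by 100. For tumours against normal brain 1 member and 5.22% of all genes were called. The count was 5 with DESeq2 (11.7% of all genes) and 15 with voom and sample quality weights (33.7%). It was 0 with limma on the deposited log2 values (3.01%) and 8 without both IDH1_R132H tumour 3 and PDGFA tumour 1 (15.7%). With normal brains 1 and 2 summed it was 0 (0%). Leaving out 1 library gave 0 to 7, with 0% to 13.5% of all genes. For IDH1_R132H against normal brain (4 called) it was 11 with DESeq2, 17 with voom and 7 without both libraries. It was 0 with the normal brains summed and 13 with only the 2 groups compared. Leaving out 1 library gave 0 to 10, with 0% to 12.2% of all genes. For IDH1WT against normal brain (0 called) it was 1 with no low count filter, 1 with DESeq2 and 5 with voom. It was 3 without both libraries and 3 with only the 2 groups. Leaving out 1 library gave 0 to 2, with 0% to 5.79% of all genes. For PDGFA against normal brain (0 called) it was 1 with no filter (2.25% of all genes) and 1 without both libraries (5.19%). Leaving out 1 library gave 0 to 1, with 0% to 4.4% of all genes. For IDH1_R132H against PDGFA (0 called) it was 1 with no filter (1.48% of all genes), 1 with DESeq2 (0.82%) and 1 with voom (2.22%). Leaving out 1 library gave 0 to 1, with 0% to 0.229% of all genes. IDH1_R132H against IDH1WT and IDH1WT against PDGFA gave 0 under every alternative run. The whole table moved with the same settings: for tumours against normal brain 929 genes were called, with 2084 by DESeq2, 6005 by voom, 2536 without PDGFA tumour 1, 0, 1 and 3 without normal brain 1, 2 and 3, and 0 with normal brains 1 and 2 summed. For IDH1_R132H against normal brain 1278 genes were called, with 2438 by DESeq2, 7320 by voom, 2167 without both libraries, 0 with the normal brains summed and 3319 with only the 2 groups; for IDH1WT against normal brain it was 307, with 1555 with no filter, 1272 by DESeq2, 3008 by voom, 1300 without both libraries and 1426 with only the 2 groups. The cause was not tested. No paired analysis was possible because the replicate numbers follow the order of the records and pair nothing. The 3 libraries a group, and counts of 7 to 18 for Idi1 and 15 to 59 for Fdps, limit which changes could be called.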
